A study of Mus musculus with 8 samples.

Results

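The chitinase-like and resistin-like genes are 7 of the 45616 genes and unnamed transcripts that the mouse array carries: Chil1, Chil3, Chil4, Chia1, Chit1, Retnla and Retnlb. They were listed by name, from what is known of allergic lungs and with earlier results of these data known. Their 8 probes were found through the RefSeq accession in the scanner output. Lung RNA of 8 female BALB/c mice was hybridized to 1-color Agilent arrays, 1 mouse per array and 2 mice per group. Mice were bought at 4 weeks of age, housed for 2 weeks, and kept on their feed for 70 days. NT mice ate standard feed and never met ovalbumin (OVA). Ctrl-F mice ate that same feed, Cap-F mice ate feed with carbonate apatite particles, and ODNcap-F mice ate feed with such particles loaded with MsST, a CpG-oligodeoxynucleotide. Those 3 groups were sensitized with OVA in aluminum oxide gel by intraperitoneal injection and inhaled OVA daily until the day before lung collection. Feed effects can therefore be read only among OVA-exposed mice, since no unexposed mice ate particles.

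Chitinase-like proteins share the fold of glycoside hydrolase family 18. Chia1 and Chit1 encode active chitinases, which cut the chitin of fungi, mites and insects, whereas the proteins of Chil1, Chil3 and Chil4 bind sugars but have lost the catalytic residue. Retnla and Retnlb encode small secreted cysteine-rich proteins related to resistin. In the allergic lung, IL-4 and IL-13 acting through STAT6 are known to induce Chil3, Chil4, Chia1, Retnla and Retnlb in macrophages and airway epithelium.

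Of the 56605 probes, 61.3% to 65.0% gave a signal well above background on any one array, and no spot was saturated. Values are log2 signals after quantile normalization over all arrays. A probe was kept where it was well above background in both mice of a group, and the 37116 kept probes stood for 28992 genes or transcripts. Groups were compared in 1 limma fit over all arrays. A call needed a fold change over 2 and an adjusted p under 0.05 after Benjamini-Hochberg correction over all kept probes. Exact permutation of 1 gene over 2 mice against 2 gives no two-sided p below 0.333. Row 1 of the slide held the NT and Ctrl-F arrays and row 2 the others, so row and group cannot be told apart between rows. Markers of lung, Sftpc, Sftpb, Scgb1a1, Ager and Cldn5, were bright in every mouse. Of these, Sftpc and Scgb1a1 stood at 17.52 to 17.64 in every mouse, top values that quantile normalization sets by rank. The brightest probes of the lung markers summed to 630443 to 631609 signal units in NT and 524610 to 543297 in challenged mice, with Cldn5 called lower in each challenged group. Some fainter Ager probes were also called lower in each (log2 differences -1.39, -1.50 and -1.33, and -1.32, -1.40 and -1.22), and others only in Cap-F or in no group. Of 8 markers of gastric or salivary tissue, where Chia1 and Chil4 are also made, 6 did not pass the filter, among them the defining markers Gkn1, Gkn2 and Pgc. Tff1, which airway mucous cells also make, was called higher than NT and Amy1 lower in each challenged group. Tff1 was not well above background in NT and passed the filter only through the challenged groups. The 2 genes summed to 80 to 90 signal units in NT and 246 to 1020 in challenged mice.

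Of the 7 genes, Chil1, Chil3, Chil4, Chia1 and Retnla were well above background in every mouse, and these 5 were called higher than NT in each OVA-challenged group. Retnlb and 1 of the 2 Chit1 probes passed the filter only through the challenged groups, so that a difference from NT was built into their selection. They were also called higher. Over all genes, 10.5% were called higher and 12.2% lower in Ctrl-F, 9.74% and 9.87% in Cap-F, and 9.86% and 10.8% in ODNcap-F. The median log2 difference from NT of the 5 genes measured in all mice was 2.84 for Ctrl-F, 2.96 for Cap-F and 2.92 for ODNcap-F, where that of all genes was -0.12, -0.11 and -0.12. The 3 comparisons share the NT mice and are therefore given side by side. In whole lung, more cells of a type cannot be told apart from more RNA per cell.

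**Figure D1:**
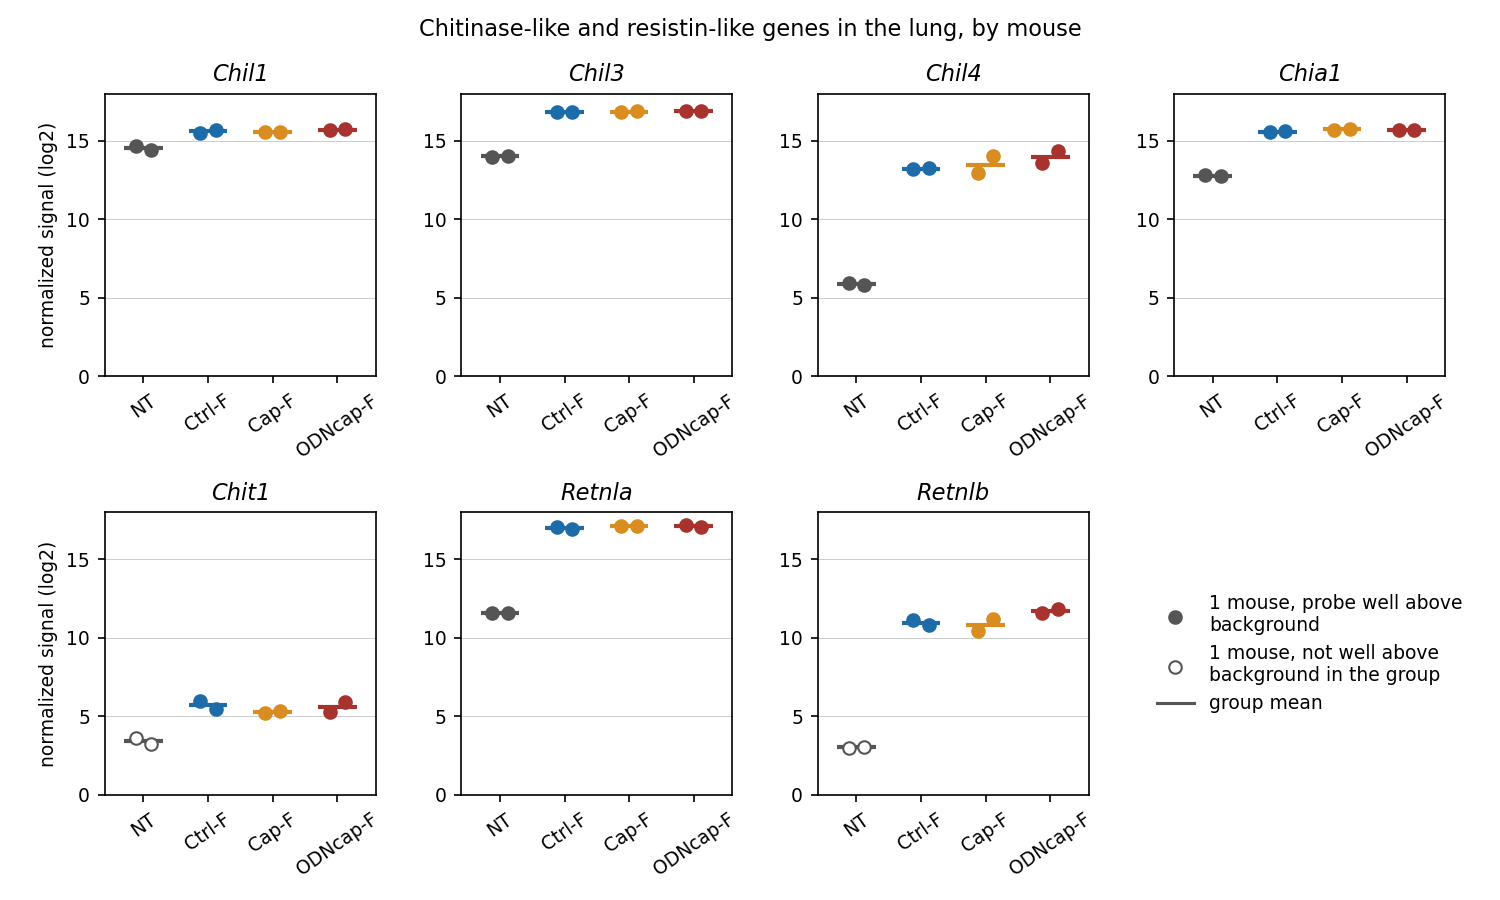
Normalized signal (log2, y axis) of the 7 genes in each mouse of the 4 groups (x axis). Points are mice, lines are group means, and open points mark groups in which the probe was not well above background. The lowest OVA-challenged mouse lies above the highest NT mouse by 0.86 for Chil1, 2.76 for Chil3 and 6.98 for Chil4. For Retnlb, which had only a limit in NT, it lies at least 6.77 above that limit.

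Among the chitinase-like genes without enzyme activity, Chil4 (NM_145126), also called Ym2, differed most from NT. Its log2 signal was 5.97 and 5.83 in NT, and it reached 13.18 and 13.24 in Ctrl-F, 12.95 and 14.01 in Cap-F, and 13.57 and 14.34 in ODNcap-F. The 6 challenged mice spanned 1.39 but stayed 6.98 or more above both NT mice. The rise was 159-fold in Ctrl-F (log2 difference 7.31, SE 0.39, adjusted p = 5.08e-05 by limma), 191-fold in Cap-F (7.58, adjusted p = 5.30e-05) and 266-fold in ODNcap-F (8.06, adjusted p = 4.20e-05). The group means were in the order ODNcap-F, Cap-F, Ctrl-F, NT, and no neighbors in that order above NT differed beyond their spread. With normexp background correction the log2 differences were 6.24, 6.46 and 6.94, and all were called.

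Chil3 (NM_009892), or Ym1, is a macrophage product that can form crystals in inflamed lungs. Its log2 signal was 13.93 and 14.05 in NT, against 16.85 and 16.81 in Ctrl-F, 16.81 and 16.88 in Cap-F, and 16.88 and 16.86 in ODNcap-F. All 6 challenged mice fell within 0.08 of each other, or within 0.18 when arrays were scaled to their 75th percentile. The rise was 7.14-fold in Ctrl-F, 7.23-fold with Cap-F feed and 7.37-fold with ODNcap-F feed (log2 differences 2.84, 2.85 and 2.88, SE 0.073, highest adjusted p = 7.05e-06 by limma). Chil3 and Chil4 are near-identical neighbors, and cross-hybridization between their transcripts was not tested, because probe sequences were not used here.

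Chil1 (NM_007695), whose protein is BRP-39 or YKL-40, differed least. The NT mice had signals of 14.66 and 14.40, while Ctrl-F mice were at 15.52 and 15.67, then 15.57 and 15.56 in Cap-F, and 15.70 and 15.71 in ODNcap-F. Every challenged mouse was higher than both NT mice, by at least 0.86. The rise was 2.09-fold in Ctrl-F (log2 difference 1.06, SE 0.11, adjusted p = 0.000404 by limma), 2.04-fold in Cap-F (1.03, adjusted p = 0.000532) and 2.26-fold in ODNcap-F (1.17, adjusted p = 0.000317), just past the fold limit. Without NT mouse 2 it was under 2-fold in Ctrl-F (0.93) and Cap-F (0.90), without Ctrl-F mouse 2 it was 0.99 in Ctrl-F, and with normexp background correction it was 0.996 in Cap-F.

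The promoter windows of the neighbors Chil3 and Chil4 were set side by side because their transcripts moved in one direction by unlike amounts. In RefSeq promoter windows of the C57BL/6J reference (GRCm38.p6), the 250 bases before the start matched in 201 of 279 alignment columns (72.0%). Both held the letters TTCTTAGAA, a match to TTCNNNGAA, a spacing that STAT proteins bind. The match lay at -172 to -164 from the start in Chil3 and at -200 to -192 in Chil4, shown here in capitals, at chr3:106167698-106167766 and chr3:106219641-106219709 on the minus strand.
Chil3: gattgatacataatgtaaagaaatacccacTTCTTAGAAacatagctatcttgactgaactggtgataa
Chil4: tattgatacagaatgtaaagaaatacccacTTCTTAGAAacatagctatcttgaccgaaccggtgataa
The motif reads alike on both strands, and 8.30% of 32851 promoter windows of 300 bases hold it. A match in the letters is a description and not a bound site. The mice were BALB/c, whose own sequence was not used here.

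Of the active chitinases, Chia1 (NM_023186), the acidic mammalian chitinase of airway epithelium and macrophages, was at 12.80 and 12.74 in NT. It reached 15.57 and 15.58 in Ctrl-F, 15.71 and 15.76 in Cap-F, and 15.69 and 15.69 in ODNcap-F. The challenged mice differed by at most 0.19 and stood at least 2.77 above NT. The rise was 6.99-fold, 7.80-fold and 7.56-fold (log2 differences 2.81, 2.96 and 2.92, SE 0.064, highest adjusted p = 5.96e-06 by limma). Of 4 club cell markers, Cyp2f2 and Scgb3a2 were called lower in each challenged group, and Scgb1a1 was not called. Scgb1a1 was at 17.52 to 17.64 in every mouse, top values set by rank, so that little difference could show. Scgb3a1 was called higher in ODNcap-F only, at 11.80 and 14.54 in NT and between 14.68 and 16.02 in challenged mice. The sum of the 4 markers, Scgb1a1 included, was at 426509 to 476606 signal units in NT and 249445 to 320654 in challenged mice. By their brightest probes none of 6 alveolar type 2 markers was called, with sums of 398425 to 404660 and 355929 to 371794. Sftpc in that sum was at 17.60 or 17.64 in every mouse, likewise values set by rank. A fainter Sftpb probe was at 13.68 and 13.48 in NT and between 11.74 and 12.20 in challenged mice. The part of club cells and alveolar type 2 cells in the Chia1 values was not tested.

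Chit1 (NM_027979), chitotriosidase, a macrophage chitinase, was faint throughout. Its signal was 3.62 and 3.21 in NT, where neither mouse was well above background, then 5.97 and 5.47 in Ctrl-F, 5.23 and 5.32 in Cap-F, and 5.30 and 5.88 in ODNcap-F. All challenged mice were higher than both NT mice.

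Because NT gave only a limit for Chit1, its rise is a lower bound. The challenged mean was set against the NT mean of, per array, the lowest signal well above background or the probe's own value if higher. On that basis Chit1 was at least 4.26-fold higher in Ctrl-F, at least 3.13-fold in Cap-F and at least 3.91-fold in ODNcap-F (adjusted p = 0.000677, 0.00180 and 0.000914 by limma on the measured values). With normexp correction the bounds were 1.48-fold, 1.34-fold and 1.46-fold, and none was called. A second Chit1 probe (NM_001284525) was not well above background in any of the 8 mice.

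Of the resistin-like genes, Retnla (NM_020509), which encodes RELM-alpha or FIZZ1, was at 11.57 and 11.55 in NT. It stood at 17.04 and 16.94 in Ctrl-F, 17.12 and 17.11 in Cap-F, and 17.14 and 17.02 in ODNcap-F. The challenged mice lay within 0.20 of each other, and the lowest was 5.37 above NT. The rise was 43.1-fold in Ctrl-F (log2 difference 5.43, SE 0.075, adjusted p = 4.26e-06 by limma), 47.2-fold in Cap-F (5.56, adjusted p = 4.69e-06) and 46.0-fold in ODNcap-F (5.52, adjusted p = 4.12e-06).

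Retnlb (NM_023881), which encodes RELM-beta, a goblet cell product known from the gut and from allergic airways, was not well above background in either NT mouse, at 2.99 and 3.06. It was at 11.10 and 10.81 in Ctrl-F, 10.41 and 11.21 in Cap-F, and 11.59 and 11.80 in ODNcap-F. Both ODNcap-F mice were higher than the other challenged mice, and all 6 were at least 6.77 above the limit that the NT arrays allow. Retnlb was at least 161-fold higher in Ctrl-F than in NT, at least 145-fold with Cap-F feed and at least 269-fold with ODNcap-F feed (highest adjusted p = 1.38e-05 by limma on the measured values). With normexp correction these bounds were 27.8-fold, 25.0-fold and 45.5-fold, and all were called. Cross-hybridization among Retnla, Retnlb and Retnlg was not tested either.

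Promoter windows were also searched for the spacing that STAT6 prefers, TTC and GAA with 4 bases between them, and the resistin-like genes that held it are shown. Retnla held TTCACAAGAA at -145 to -136 (chr16:48842434-48842503, plus strand), and Retnlg, a neighbor described below, held TTCACAGGAA at -72 to -63 (chr16:48872506-48872575, plus strand). Capitals mark the match.
Retnla: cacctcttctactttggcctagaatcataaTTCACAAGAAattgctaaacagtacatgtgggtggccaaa
Retnlg: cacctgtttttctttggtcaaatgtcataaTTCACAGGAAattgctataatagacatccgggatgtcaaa
This motif also reads alike on both strands, shares no position with the shorter spacing in these windows, and stands in 6.95% of the 32851 windows. Neither motif was found in the windows of Chil1, Chia1, Chit1 or Retn, and that of Retnlb was not among them.

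**Figure D2:**
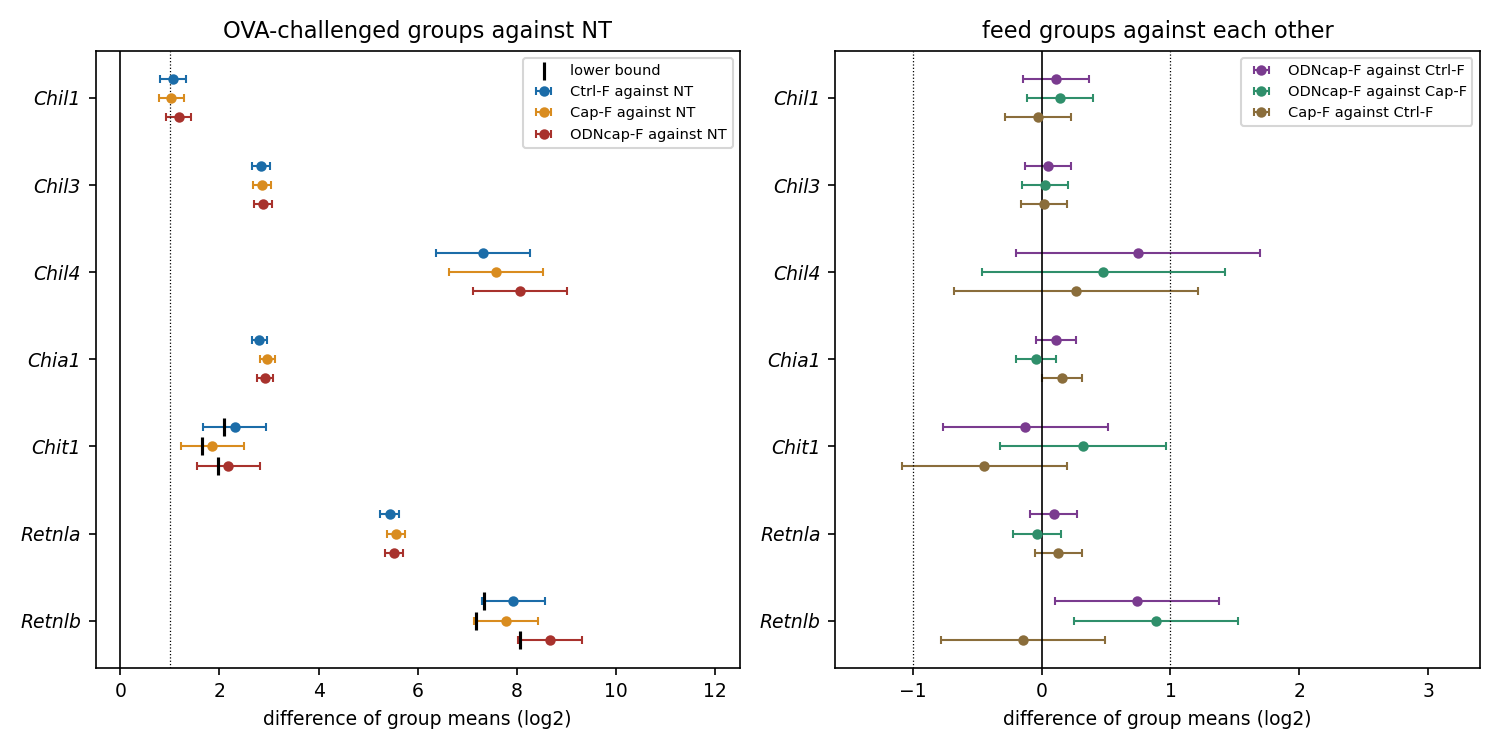
Differences of group means (log2, x axis) for the 7 genes (y axis), with 95% confidence intervals from the limma fit, for each challenged group against NT (left) and for the feed groups against each other (right). Dotted lines mark 2-fold and black bars the lower bounds of Chit1 and Retnlb. On the left each estimate lies at 1.03 or above, and on the right each lies between -0.45 and 0.89.

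The comparisons among the challenged groups ask whether the particles or their MsST load moved these genes. None of the 7 genes was called by limma between ODNcap-F and Ctrl-F, ODNcap-F and Cap-F, or Cap-F and Ctrl-F, and over all genes 0%, 0.00345% and 0.00345% were called. At an unadjusted p under 0.05 with a fold change over 2, and by the local-pooled-error test used in the study, the count of the 7 was also 0 in each comparison. Over all genes the unadjusted p gave 190, 186 and 284 calls and the local-pooled-error test 129, 105 and 140. The medians of the 7 differences were 0.11, 0.14 and 0.018 on the log2 scale.

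Retnlb came nearest. Both ODNcap-F mice (11.59 and 11.80) were above both Ctrl-F mice (11.10 and 10.81) and both Cap-F mice (10.41 and 11.21). Its mean was 1.67-fold higher than in Ctrl-F (log2 difference 0.74, 95% confidence interval 0.10 to 1.38, adjusted p = 0.740 by limma) and 1.85-fold higher than in Cap-F (0.89, interval 0.25 to 1.52, adjusted p = 0.292). The local-pooled-error test gave it adjusted p-values of 0.00469 and 0.000119, at a fold change under 2. ODNcap-F and Cap-F arrays shared a slide row.

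For Chil4, both ODNcap-F mice (13.57 and 14.34) were above both Ctrl-F mice (13.18 and 13.24) but overlapped the Cap-F mice (12.95 and 14.01). The difference from Ctrl-F was 0.75 (interval -0.20 to 1.69, adjusted p = 0.760 by limma and 0.00132 by the local-pooled-error test), and that from Cap-F was 0.48 (-0.47 to 1.42, adjusted p = 0.632 by limma). Without Cap-F mouse 1 the latter was -0.051. These intervals leave room for a change of more than 2-fold.

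For the bright genes the intervals were narrow. In all 3 feed comparisons those of Chil3 lay between -0.16 and 0.22, those of Chia1 between -0.20 and 0.32, those of Retnla between -0.22 and 0.31, and those of Chil1 between -0.29 and 0.40. All exclude a 2-fold change in the measured signal. Chia1 in Cap-F was 0.16 above Ctrl-F (unadjusted p = 0.0476 in limma, adjusted p = 0.303). The intervals of Chit1 ran from -1.09 to 0.96.

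**Figure D3:**
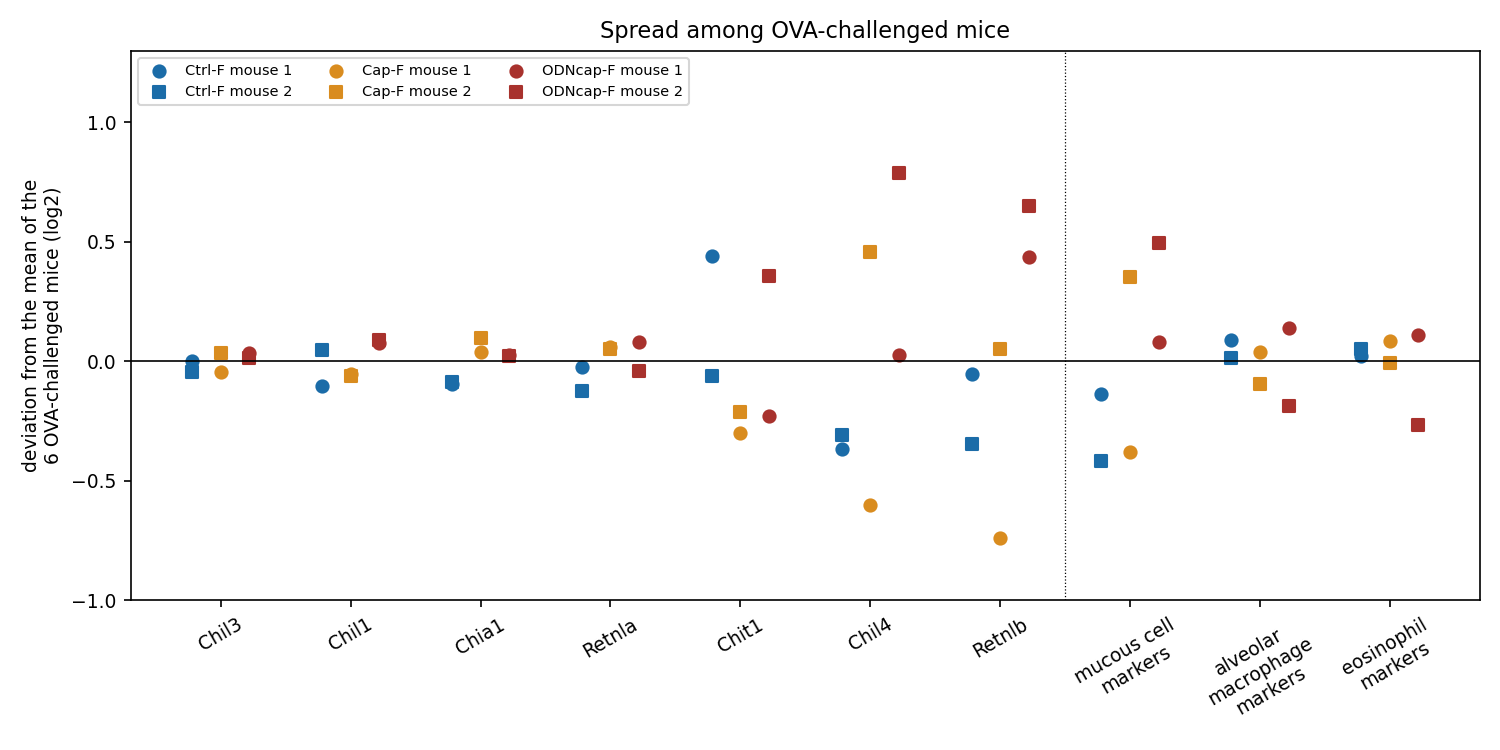
Deviation of each OVA-challenged mouse from the mean of the 6 challenged mice (log2, y axis) for the 7 genes and for summed markers of mucous cells, alveolar macrophages and eosinophils (x axis). Colors are groups and shapes are mice. Chil3, Chil1, Chia1 and Retnla stay within 0.13 of the mean, whereas Chil4 and Retnlb run from -0.74 to 0.79.

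Among the 6 challenged mice, the genes fell into a tight and a spread set. The range was 0.08 for Chil3, 0.19 for Chil1 and Chia1 and 0.20 for Retnla, against 0.74 for Chit1 and 1.39, or 2.62-fold, for both Chil4 and Retnlb. The lowest mouse for Chil4 and Retnlb was Cap-F mouse 1 and the highest ODNcap-F mouse 2. When arrays were scaled to their 75th percentile instead, the ranges were 0.12 for Chia1, 0.18 for Chil3, 0.24 for Retnla and 0.28 for Chil1, against 0.75 for Chit1, 1.42 for Retnlb and 1.50 for Chil4.

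Summed markers of mucous cells (Muc5ac, Muc5b, Clca1, Agr2, Foxa3, Spdef, Itln1 and Tff2) were highest in ODNcap-F mouse 2, as Chil4 and Retnlb were, and lowest among challenged mice in Ctrl-F mouse 2. All 8 passed the filter and were called higher than NT in each challenged group, and none was called between feed groups. Foxa3, not well above background in NT, and Clca1, above it in 1 of 2 NT mice, passed only through the challenged groups. A difference from NT was therefore built into the selection of these genes. The sum of the 8 markers was 2192 to 3768 signal units in NT. It was 137391 to 167045 for Ctrl-F, 141274 to 234598 for Cap-F and 194337 to 258383 for ODNcap-F. In Cap-F mouse 1 it was 0.38 below the mean of the challenged mice on the log2 scale and in ODNcap-F mouse 2 it was 0.49 above. Itln1, an airway lectin of mucous cells, was at 13.68 and 15.05 in the Cap-F mice and at 14.47 and 15.52 in the ODNcap-F mice. The part of mucous cells in the values of Chil4 and Retnlb was not tested.

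Markers of macrophages and eosinophils were also summed. Of 11 alveolar macrophage markers, 5 were called higher than NT in each comparison, but not the same 5. Ear1 was among them in Ctrl-F and ODNcap-F, and Siglecf in its place in Cap-F. Of the 11 markers, 3 were called lower in both Ctrl-F and Cap-F and 2 in ODNcap-F. Itgax and Ctsk were among the higher ones, and the defining marker Marco was lower, from 10.20 and 10.04 in NT to between 5.55 and 6.73 in challenged mice. The sum of the 11 markers was 41767 to 44172 in NT and 99114 to 124393 in challenged mice. Among these it was highest in ODNcap-F mouse 1 and lowest in ODNcap-F mouse 2. Of 6 eosinophil markers, which share Siglecf with the macrophage markers, 5, 5 and 4 were called higher. Their sum was 1742 to 1873 in NT and 5339 to 6942 in challenged mice. Epx among them was not well above background in NT and passed the filter only through the challenged groups. The part of these cells in the values of the 7 genes was not tested.

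Profiles over the 8 mice, each centered on its own mean, were closest for Chil3 and Chia1, with a root mean square difference of 0.071 on the log2 scale. Chil4 and Retnlb followed at 0.32. All other pairs were 0.43 or more apart. The measure holds the NT difference as well as the spread among challenged mice, and the points share the arrays. For Chit1 and Retnlb it also holds NT values that were not well above background.

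Among 16564 named genes, the closest to Chil4 was Itln1 (0.41), then the chemokine gene Ccl8 (0.49) and the protease gene Capn9 (0.53). Ccl8 was also the closest to Retnlb (0.44), before Speer2 (0.49) and the anion exchanger gene Slc26a4 (0.51). Closest to Chil3 were Kntc1, Racgap1 and Cenpk (0.066 to 0.076), which act in mitosis, and to Chia1 the complement gene C1qc (0.087), Rgs5 and Cenpk. Chil1 was closest to Aif1l, the transferrin receptor gene Tfrc and Wdr76 (0.071 to 0.080), Retnla to Fut1, Corin and Derl3 (0.11 to 0.21), and Chit1 to Dock3, S100pbp and Lin52 (0.12 to 0.18).

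The genes lie in 3 clusters. In RefSeq gene order (GRCm38.p6), Chit1 and Chil1 are neighbors on chromosome 1, Chia1, Chil3 and Chil4 follow each other on chromosome 3, and Retnlb, Retnla and Retnlg do so on chromosome 16. Taking 5 protein-coding genes on either side, 8 flanking genes passed the filter on chromosome 3 and none was called in any challenged group, with log2 differences from NT between -0.68 and 0.59. On chromosome 1, 9 passed, of which the matrix protein gene Prelp was called lower in each challenged group (-1.75, -1.40 and -1.61). Mybph (1.46, 1.07 and 0.61) and Ppfia4 (1.19, 1.18 and 0.94) passed the call limits for Cap-F and Ctrl-F and missed them for ODNcap-F. On chromosome 16, 4 passed, of which Retnlg (2.21, 2.44 and 2.26) and Cip2a (3.39, 3.33 and 3.42), an inhibitor of protein phosphatase 2A, were called higher in each group.

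**Figure D4:**
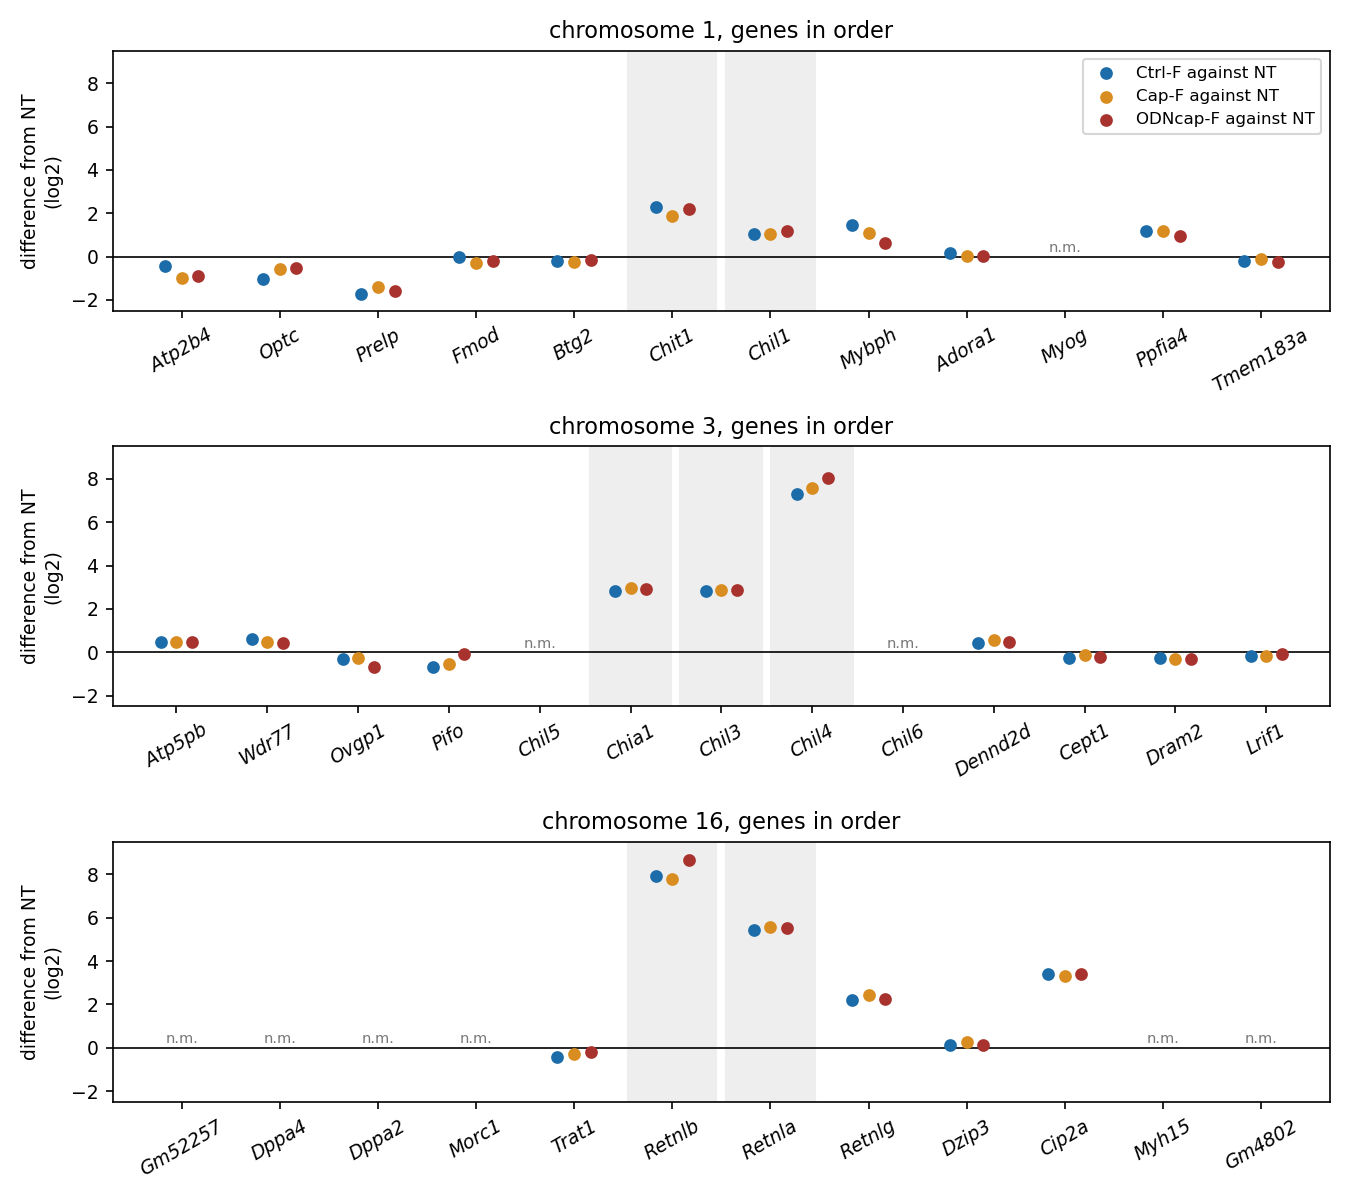
Difference from NT (log2, y axis) in each challenged group for the 7 genes (shaded) and the 5 protein-coding genes on either side of each cluster, in RefSeq order and not to scale (x axis); n.m. marks genes that had no probe or did not pass the filter. Chit1 and Retnlb are drawn at their fitted differences, which lie above their lower bounds. On chromosome 3 Chia1, Chil3 and Chil4 stand at 2.81 to 8.06 between flanking genes that lie between -0.68 and 0.59.

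Other members of both families were examined. Of 5 further glycoside hydrolase 18 genes, Chil5 had no probe and Chil6 did not pass the filter. Chid1, which encodes a chitinase domain protein of lysosomes, was called higher in each challenged group, at 8.43 and 8.48 in NT and between 9.58 and 9.90 in challenged mice (2.20-fold for Ctrl-F, 2.54-fold for Cap-F and 2.39-fold for ODNcap-F, highest adjusted p = 0.000349 by limma). Ovgp1, an oviduct glycoprotein gene, and Ctbs, the lysosomal chitobiase gene, were not called, with log2 differences between -0.82 and -0.25.

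By their brightest probes, both other resistin family genes were called higher in each challenged group, though the probes of Retn disagreed. Retnlg, or RELM-gamma, a myeloid gene, rose from 11.34 and 11.26 in NT to between 13.45 and 13.75 (4.61-fold, 5.43-fold and 4.80-fold, highest adjusted p = 2.42e-05 by limma). Of 9 neutrophil markers, which include Retnlg, only Retnlg and Ltf were called higher, while Camp and Ngp were called lower in each group and S100a9 in ODNcap-F. Their sum was 44072 to 56203 in NT and 35106 to 49646 in challenged mice.

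Resistin itself, Retn, an adipocyte hormone in mice, gave probes that disagreed. The brighter was at 7.98 and 7.50 in NT and between 8.56 and 9.38 in challenged mice (2.07-fold, 2.03-fold and 2.72-fold, highest adjusted p = 0.0106 by limma). The other gave 8.13 and 7.87 in NT but 2.97 and 4.86 in Ctrl-F, followed by 4.10 and 6.74 in Cap-F, and 6.54 and 7.55 in ODNcap-F, and was called lower in Ctrl-F. Markers of white adipose tissue summed to 2455 to 3034 signal units in NT and to 820 to 955 in the Ctrl-F mice. They ranged from 648 to 2519 over the Cap-F mice and from 1998 to 3638 over the ODNcap-F mice, and their part in the Retn values was not tested.

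Of 4 proposed receptors and binding partners, only Il13ra2 was called, higher than NT in each challenged group. Over all genes, 10.5%, 9.74% and 9.86% were called higher. Il13ra2 passed the filter only through the challenged groups, so that a difference from NT was built into its selection. This IL-13 decoy receptor, also proposed to bind the Chil1 protein, was at 4.10 and 3.26 in NT, where 1 of 2 mice was well above background, 8.35 and 8.90 in Ctrl-F, 7.74 in both Cap-F mice, and 8.32 and 8.49 in ODNcap-F. All challenged mice were higher, by 30.7-fold, 16.7-fold and 26.5-fold (highest adjusted p = 0.000178 by limma). Its partner Tmem219 was not called, at 1.44-fold, 1.27-fold and 1.47-fold over NT. Ptgdr2 and Cap1, a resistin-binding protein, had log2 differences between -0.34 and 0.20.

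Of 10 genes of IL-4 and IL-13 signaling, 4 were called higher than NT by the Ctrl-F comparison, 5 by that of Cap-F and 3 by that of ODNcap-F, and none lower. The share of all genes called higher was 10.5%, 9.74% and 9.86%. Il4 was at 5.16 and 5.42 in NT and between 8.99 and 9.28 in challenged mice (15.0-fold, 13.7-fold and 14.5-fold, highest adjusted p = 1.11e-05 by limma). Il13, not well above background in NT, passed the filter only through the challenged groups and was at least 2.93-fold, 2.39-fold and 2.08-fold higher. Socs1, a feedback inhibitor of the pathway, rose in all groups (log2 differences 2.56, 2.55 and 2.48), Jak3 was called in Ctrl-F (1.08) and Cap-F (1.09), and Il2rg in Cap-F (1.09). The receptor chains Il4ra and Il13ra1 had differences between -0.17 and 0.10, and Stat6 between -0.39 and -0.23.

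Of 12 genes of alternative macrophage activation, 10 were called higher in each challenged group, and Tgm2 and Pparg were not. Over all genes, 10.5%, 9.74% and 9.86% were called higher. Arg1 and Ccl22 passed the filter only through the challenged groups, so that a difference from NT was built into their selection. Arg1, or arginase 1, was at 4.90 and 3.71 in NT, where 1 of 2 mice was well above background, and between 11.89 and 13.18 in challenged mice (log2 differences 8.70, 7.69 and 8.39, highest adjusted p = 4.82e-05 by limma). The eosinophil chemokine gene Ccl24 was at 7.79 and 7.84 in NT and between 14.25 and 14.75 in challenged mice (115-fold, 94.5-fold and 111-fold, highest adjusted p = 5.50e-06). Mrc1, the mannose receptor gene, differed by 2.11, 1.70 and 2.21. Ccl22, not well above background in NT, was at least 1.92-fold, 2.49-fold and 2.01-fold higher. In Ctrl-F that bound lies below the fold limit of a call. No gene of the signaling or activation lists was called between feed groups.

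**Figure D5:**
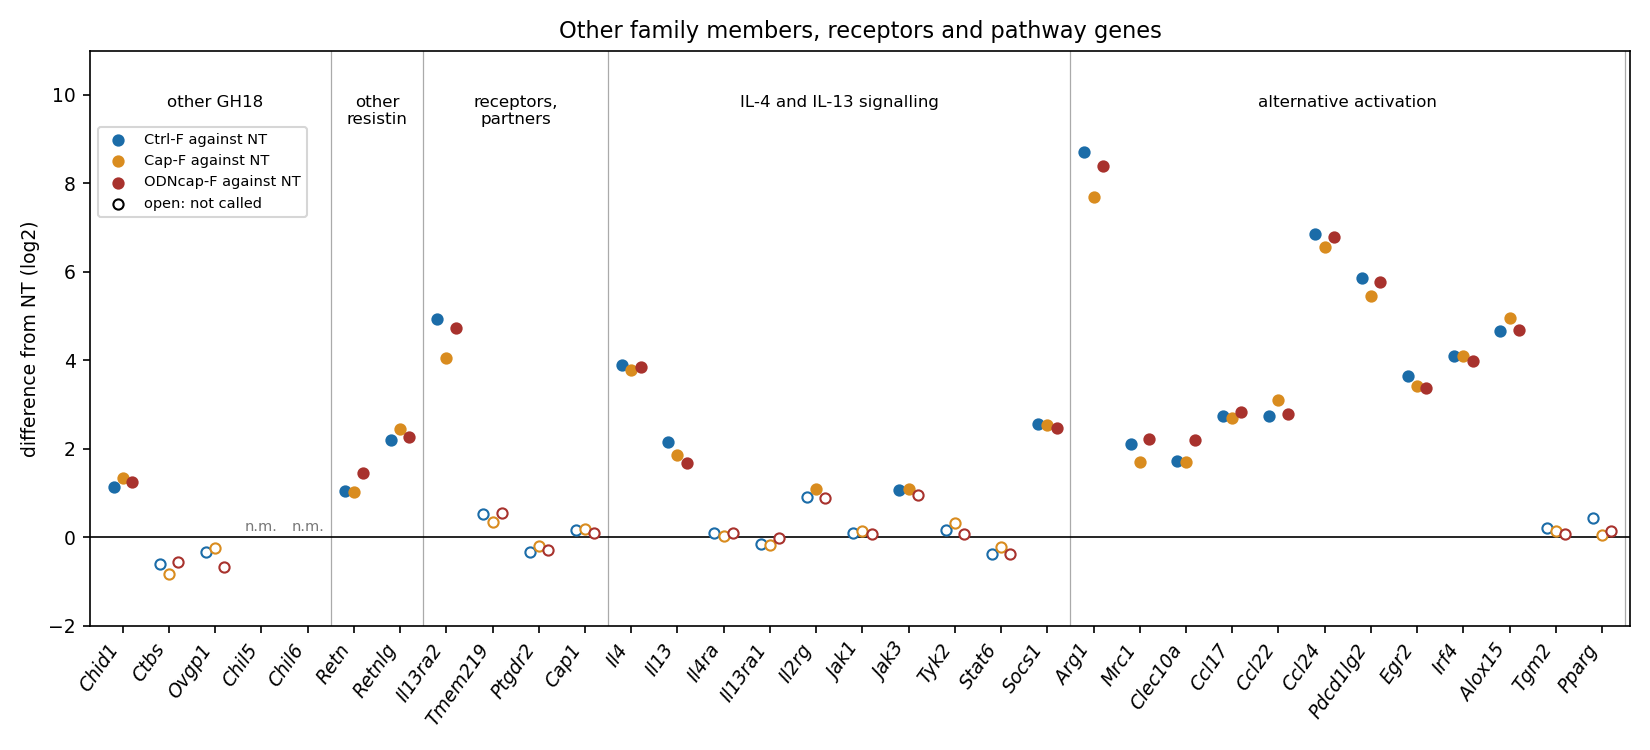
Difference from NT (log2, y axis) in each challenged group for other family members, proposed receptors and partners, IL-4 and IL-13 signaling genes and alternative activation genes (x axis). Filled points were called, open points were not, and n.m. marks genes with no probe or not past the filter, and Il13 and Ccl22 are drawn at fitted differences above their lower bounds. Arg1 (7.69 to 8.70) and Ccl24 (6.56 to 6.85) stand highest, and Il4ra, Il13ra1 and Stat6 lie near 0.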

How the data were processed

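For each of 8 arrays the authors deposited spot intensities from Agilent Feature Extraction 11.0, after its background subtraction and spatial detrending, with raw median intensities and other columns of 0 or 1 flags. They also deposited log2 values of 32312 probes after quantile normalization. The 59305 spots other than controls were used, and 792 spot values flagged as outliers were set to missing. Intensities were log2 transformed, averaged per probe and quantile normalized. Names came from RefSeq accessions (65.4% of kept probes), and the brightest kept probe stands for a gene. The fit (limma 3.58.1, R 4.3.3) held the 4 groups with no covariate, 4 residual and 1.96 prior degrees of freedom, and compared all 6 pairs. It was tested on simulated data. Quantile normalization follows the study's methods, whose local-pooled-error test was rebuilt as an alternative. The limma fit and the other alternatives were chosen here. Members, lists of pathway and marker genes and tests were chosen with earlier results of these data known. The rule for named genes took the 7 genes, their families, receptors, pathway lists and the 3 closest profiles per gene. Marker sums are sums of normalized linear signal. The number of arrays limits the precision. Replicates are separate mice. Protein sequences were not used here.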

Additional observations from a re-analysis of the deposited data

How the results depend on the processing

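The count of the 7 genes called was recomputed under 19 alternatives: other scaling, background correction, filters, variance models, tests, probe rules and starting values, and each mouse left out. In the feed comparisons it was 0 throughout. Against NT it was 5 to 7, with normexp correction giving 5 for Cap-F and 6 for the others. The deposited log2 table and a filter to probes above background on all arrays gave 5, as neither values Chit1 and Retnlb. Genes called over all genes fell with normexp from 6603 to 3548 for Ctrl-F, from 5685 to 3044 for Cap-F and from 5999 to 3142 for ODNcap-F. Between Cap-F and Ctrl-F they went from 1 to 17 with an intensity trend in the variance.

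Among the 7 genes, direction turned only in feed comparisons, in which none of them was called. With scaling to the 75th percentile, the log2 difference of ODNcap-F from Cap-F was 0.060 for Chia1 and 0.038 for Retnla, and that of Cap-F from Ctrl-F was -0.027 for Chil3, or -0.00824 with normexp. With 1 mouse left out, the differences of Cap-F from Ctrl-F ran from -0.10 to 0.045 for Chil1, -0.022 to 0.057 for Chil3, -0.26 to 0.80 for Chil4 and -0.54 to 0.25 for Retnlb. Those of ODNcap-F from Cap-F ran from -0.010 to 0.068 for Chil3, -0.051 to 1.01 for Chil4 and -0.097 to 0.024 for Retnla, and that of Chit1 between ODNcap-F and Ctrl-F from -0.42 to 0.17. The remaining mouse of such a group was assumed to vary like the others. The cause was not tested.

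The labels number the mice of each group but do not say whether same-numbered mice were paired. Correlations of their deviations ran from -0.012 to 0.16, highest for Cap-F with ODNcap-F, and cannot settle it. With the replicate number as a block, 7 of the 7 genes were called in each NT comparison and 0 in each feed comparison. Of the pathway and family lists, Retn was lost under several alternatives, and Chid1 with normexp in Ctrl-F. Chit1 and the NT values of Retnlb lie near background, where the signal gives limits only.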
